A study of Mus musculus with 8 samples.

Results

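Cytosolic ribosomal proteins are the proteins that, with ribosomal RNA, make up the small and the large subunit of the ribosome outside mitochondria. The genes described here were chosen by symbol alone: names starting in Rpl or Rps, with a p for the acidic stalk proteins, followed by a number and at most a short ending such as a, x, l or 1. In the array annotation 48 genes with a probe set of their own met this rule, of 18193 genes in all, and they had 103 probe sets of 34945 with 1 gene symbol. The large subunit had 26 of these genes and the small subunit 22. All 48 were found in the mouse RefSeq table under the same symbol and Entrez number.

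The arrays measured RNA of epididymal white adipose tissue, a visceral fat depot of males, from mice that lack LPA4, a receptor for the lipid lysophosphatidic acid. The 4 LPA4-KO mice were males carrying a deficient allele of the X-linked gene Lpar4 (Lpar4 -/Y), and the 4 WT mice were their male littermates. All 8 mice had the C57BL/6 background, were 12 weeks old and ate standard chow, and each gave 1 Affymetrix 3′ expression array. The labels describe the arrays as biological replicates and name neither a tissue-specific promoter nor a Cre, and whole tissue was used, so several cell types contributed RNA.

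A ribosome needs 1 copy of nearly every ribosomal protein, and cells make these proteins in step with ribosomal RNA. Their mRNAs are abundant and begin with a run of pyrimidines, the TOP sequence, through which mTORC1 and the RNA-binding protein Larp1 set how much of each mRNA is translated. Translation of TOP mRNAs can therefore shift without a shift in mRNA level, and arrays of total RNA measure the level only. In adipose tissue, ribosomal protein mRNA comes from adipocytes and from the progenitors, immune cells, mesothelium and vessels between them.

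At the probe sets counted as varying, most ribosomal protein mRNAs sat slightly lower in LPA4-KO than in WT fat, and no gene passed the test. A probe set was counted as varying where its highest and lowest array differed by over 0.1 log2, and 32 of the 103 did. Of these, 30 were lower on average in LPA4-KO. Their median difference was -0.10 log2, which is 1.07-fold lower, and the other 2, of the paralogues Rpl7l1 and Rps4l, were higher. Over all 6682 varying probe sets with 1 gene symbol, 56.8% were negative and the median difference was -0.05 log2.

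The promoters of ribosomal protein genes differ in their motifs, and the stretches below are shown for 6 genes that were lower in LPA4-KO and described further on, and for Rpl7l1, which had the opposite sign. RefSeq promoters of build GRCm38.p6 were given for 42 of the 48 genes. Each line runs 5′ to 3′ on the strand of the gene, from 80 bases before to 20 bases after the annotated start. Capitals mark CCGGAAG (the core bound by ETS factors) or its complement, TATAAA or its complement, and CTTTC near the start, a TOP-like run. The 6 are examples and do not stand for all lower genes. The same stretches of Rps15, Rpl37a, Rps4x, Rpl22, Rpl27, Rps24 and Rps9, also lower in LPA4-KO, hold none of these letters. Those of Rpl4, Rpl13a, Rps3a1 and Rps18, lower as well, hold 1 of these motifs each.
Rps10: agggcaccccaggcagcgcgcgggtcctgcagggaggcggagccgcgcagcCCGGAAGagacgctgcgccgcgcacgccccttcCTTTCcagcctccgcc
Rps7: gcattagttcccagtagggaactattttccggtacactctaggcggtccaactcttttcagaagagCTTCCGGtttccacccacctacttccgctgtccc
Rpl35: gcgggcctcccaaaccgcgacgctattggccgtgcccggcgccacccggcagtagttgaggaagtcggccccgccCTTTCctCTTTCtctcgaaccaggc
Rpl6: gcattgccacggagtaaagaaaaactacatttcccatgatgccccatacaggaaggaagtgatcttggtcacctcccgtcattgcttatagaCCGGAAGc
Rplp0: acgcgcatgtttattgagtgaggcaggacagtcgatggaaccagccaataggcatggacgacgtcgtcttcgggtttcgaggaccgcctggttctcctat
Rpl22l1: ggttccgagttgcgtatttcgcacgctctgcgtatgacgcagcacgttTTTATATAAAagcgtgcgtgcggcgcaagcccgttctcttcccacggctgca
Rpl7l1: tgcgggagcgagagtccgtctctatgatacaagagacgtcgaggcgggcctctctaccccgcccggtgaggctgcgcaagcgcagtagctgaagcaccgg
Rps10 thus has an ETS core upstream of a TOP-like run, Rps7 and Rpl6 have an ETS core alone in the stretch shown, and Rpl35 has 2 TOP-like runs. In Rpl22l1 the capitals cover overlapping TATAAA matches of both strands. The stretches of Rplp0 and Rpl7l1 hold none of these letters. They lie at chr17:27635225-27635324 (Rps10, minus strand), chr12:28635934-28636033 (Rps7, minus), chr2:39005112-39005211 (Rpl35, minus), chr5:121204421-121204520 (Rpl6, plus), chr5:115559387-115559486 (Rplp0, plus), chr3:28805428-28805527 (Rpl22l1, plus) and chr17:46782637-46782736 (Rpl7l1, minus).

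Across the window from 250 bases before to 50 bases after the start, CCGGAAG stood on either strand in 20 of the 42 promoters (47.6%), against 9.12% of all 27025 promoters in the table. ATGGCGG, the core bound by YY1, stood on either strand in 6 (14.3%), against 4.19% of all. TATAAA, searched on both strands, stood in 5 (11.9%), against 14.2% of all. CTTTC on the forward strand within 20 bases of the start was present in 12 (28.6%), against 5.38%. Of the 18 members with both a promoter and a varying probe set, 6 held CCGGAAG (33.3%) and 4 held the CTTTC run (22.2%). Of the 24 with a promoter and no varying probe set, 14 (58.3%) and 8 (33.3%) did. A match is a description of these letters and not a bound site, and this split by values was not tested. A probe set that did not vary does not show that its mRNA was equal in the groups.

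The deleted gene was read first as a check of the labels. Lpar4 probe set 1452424_at read 5.78, 5.86, 5.83 and 5.74 log2 in the LPA4-KO arrays and 6.48, 6.51, 6.53 and 6.54 in the WT arrays. All 4 LPA4-KO values were below all WT values, with a difference of -0.71 ± 0.03 log2 (SE, limma adjusted p = 0.0033). The other 2 Lpar4 probe sets were higher on average in LPA4-KO, by 0.68 (adjusted p = 0.233) and 0.48 log2 (adjusted p = 0.392), and the place of the deletion is not given in the sources used here. Array medians lay between 6.50 and 6.51 log2, and arrays correlated at 0.989 to 0.998 over the named probe sets. The interquartile range of all probe sets was 1.39 in every LPA4-KO array to the nearest hundredth, and 1.40 to 1.43 in WT. The groups did not overlap in it (exact two-sided permutation p = 0.0286, the smallest that 70 arrangements of 4 against 4 can give).

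The 12 measured adipocyte markers had a median signal of 12.25 log2, and 14 markers of epididymis and testis had a mean signal of 6.11 log2 and were nearly constant. Signals of different probe sets are not comparable as amounts of mRNA, so these values describe the arrays and do not test the tissue. Several lists of markers of other cell types leaned one way. All 12 measured markers of progenitors and fibroblasts were lower on average in LPA4-KO. Limma's test called 1 of the 12, Dpt, against 0.451% of all genes called lower. The mean level of the 12 was 9.38 to 9.75 log2 in the LPA4-KO arrays and 9.86 to 10.14 in the WT arrays, without overlap. All 9 mesothelium markers were negative as well, with overlapping mean levels of 7.54 to 8.05 in LPA4-KO and 7.91 to 8.74 in WT. All 9 varying markers of macrophages and dendritic cells were negative, with overlapping mean levels, and 7 of 9 varying adipocyte markers were positive. None of these 3 lists had a called gene in the fit of all genes. A fit of the varying genes alone called 5 of 12 progenitor and fibroblast markers and 3 of 9 mesothelium markers lower. It also called 2 of 9 macrophage and dendritic cell markers lower and 1 of 9 adipocyte markers higher. Of all varying genes that fit called 11.5% lower and 9.78% higher. All 3 varying lymphocyte markers, 2 of 3 varying endothelium markers and the 1 varying skeletal muscle marker were negative. Neither fit called a marker of these lists. Of all varying genes 53.4% were negative. The 4 measured erythroid markers, of which 1 varied, had mean levels of 7.21 to 7.32 in LPA4-KO and 7.10 to 7.20 in WT, without overlap. The 1 that varied was called higher in the fit of varying genes alone and not in that of all genes. In whole tissue, fewer cells of a type and less RNA per cell cannot be told apart. The part of these cell types in the ribosomal protein values was not tested.

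Most ribosomal protein probe sets held nearly the same value in every array. The 71 that did not vary had a median range of 0.00043 log2 between the highest and the lowest array, against a median range of 0.23 log2 for the 32 that did. The values fell into these classes with little between them. Just inside the limit were Rps29 1415833_x_at, with a range of 0.14 log2, and Rps29 1438859_x_at with 0.15, and just outside it were Rpl35 1434231_x_at with 0.083 and Rps10 1416719_a_at with 0.046. The step that made values nearly constant is not given in the sources used here, and such a value does not show that the mRNA was equal in the groups.

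**Figure D1:**
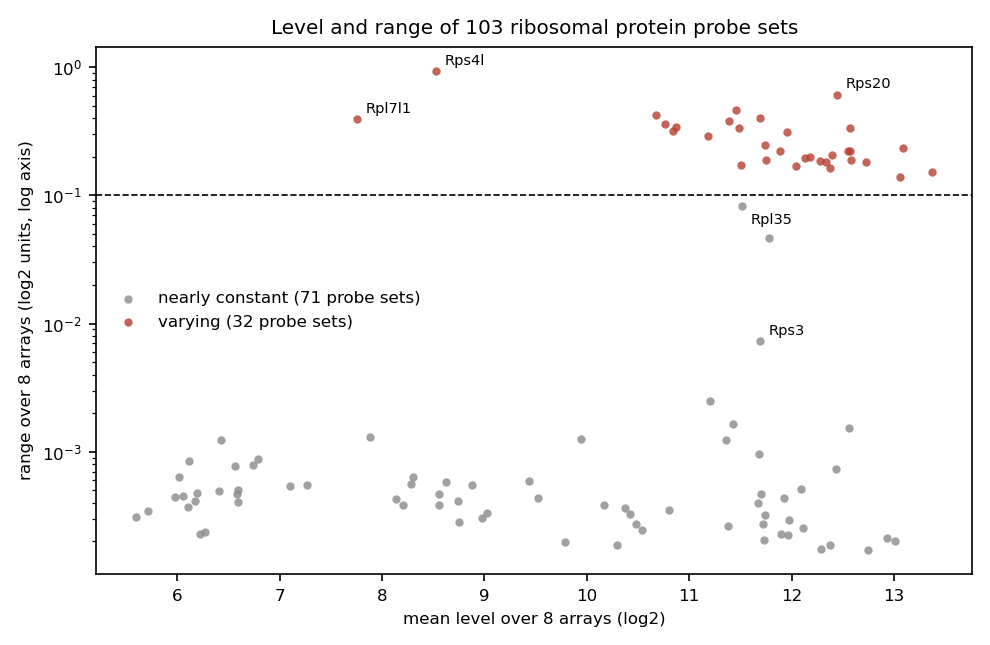
Mean level over 8 arrays (x axis, log2) and range between the highest and the lowest array (y axis, log2 units on a log axis) for each of the 103 ribosomal protein probe sets; the dashed line is the limit of 0.1 log2. The 32 varying probe sets lie above the line, and nearly all of the other 71 lie far below it, at every level.

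The varying members had mostly strong signals, and many members with strong signals did not vary. The 95th percentile of level over the named probe sets was 9.78 log2, and 65 of the 103 member probe sets lay above it. Of those 65, 30 varied (46.2%), and of the 38 at or below it 2 did. Of all named probe sets, 1232 of 1748 above that level varied (70.5%), and of those at or below it 16.4%. All 30 varying members above it were lower on average in LPA4-KO, with a median of -0.10 log2. The 1232 varying probe sets at that level, the members included, had 48.5% negative and a median of 0.01 log2.

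In 26 of the 48 genes no probe set varied. They were Rpl7a, Rpl8, Rpl10a, Rpl11, Rpl12, Rpl14, Rpl19, Rpl27a, Rpl37, Rpl38, Rpl39, Rpl41, Rplp2, Rpl3l and Rpl39l of the large subunit and Rps2, Rps3, Rps6, Rps14, Rps16, Rps19, Rps25, Rps26, Rps27, Rps27l and Rps28 of the small subunit. They include Rpl11, which with 5S ribosomal RNA binds the p53 inhibitor Mdm2, Rps6, the target of S6 kinases, and Rps19 and Rps14, known from anaemias. No difference between genotypes can be read for them here. The level of 1 probe set is not comparable with that of another as an amount of mRNA. As examples of what the array gave, Rps28 read 13.01 and Rplp2 12.94 log2 in all arrays, while the single probe set of Rps16 read 5.60.

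The same gene often had probe sets of both kinds. Of the 23 genes with several probe sets, 14 had both varying and nearly constant ones. Rps10 had 6, which gave differences of -0.20, -0.11 and -0.07 log2 at the varying ones and ranges of 0.046 log2 or less at the rest. With 1 probe set per gene, the one with the highest mean, 16 genes varied (33.3%, against 22.1% of all genes). The genes Rpl7, Rpl35, Rpl7l1, Rps9, Rps18 and Rps24 were nearly constant at that probe set and varied at another, so the gene comparison leaves out their variation.

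Among these 16 genes 15 were lower on average in LPA4-KO and 1, Rps4l, was higher. Their median difference was -0.09 log2. Of all 4029 varying genes 53.4% were negative, with a median of -0.03 log2. In 6 of the 16 all 4 LPA4-KO arrays lay below all 4 WT arrays (37.5%, against 14.5% of all varying genes), and in none were they all above (14.4% of all varying genes). Both subunits took part: all 8 varying large subunit genes were negative, with a median of -0.09 log2, as were 7 of 8 varying small subunit genes, with a median of -0.09 log2. The difference between the subunits was not tested.

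No ribosomal protein gene passed limma's test at an adjusted p under 0.05 over all genes (0 of 48, against 1.31% of all genes, 0.863% higher and 0.451% lower). No probe set passed either (0 of 103, against 0.933% of all named probe sets, 0.612% higher and 0.321% lower). At an unadjusted p under 0.05 the gene fit had 9 members lower and 1 higher, and the 1 higher was Rpl12, a nearly constant gene. All 9 lower ones were among the 16 varying genes, and of all varying genes 20.5% were lower and 19.3% higher at this p. In a fit of the varying genes alone 0 members passed, against 21.3% of those genes. In a fit of the varying probe sets alone 3 of the 32 passed, all lower. Of all varying probe sets 18.8% passed, 10.5% lower and 8.35% higher, so that the members' share was near the background for lower calls and below it for calls in either direction. They were Rps10 1434854_a_at, Rpl7 1426162_a_at and Rps20 1456436_x_at. With any 1 of the 8 arrays left out, Rps10 and Rpl7 lost this call each time, with adjusted p from 0.0506 to 0.0889, and Rps20 kept it once, without WT 3.

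**Figure D2:**
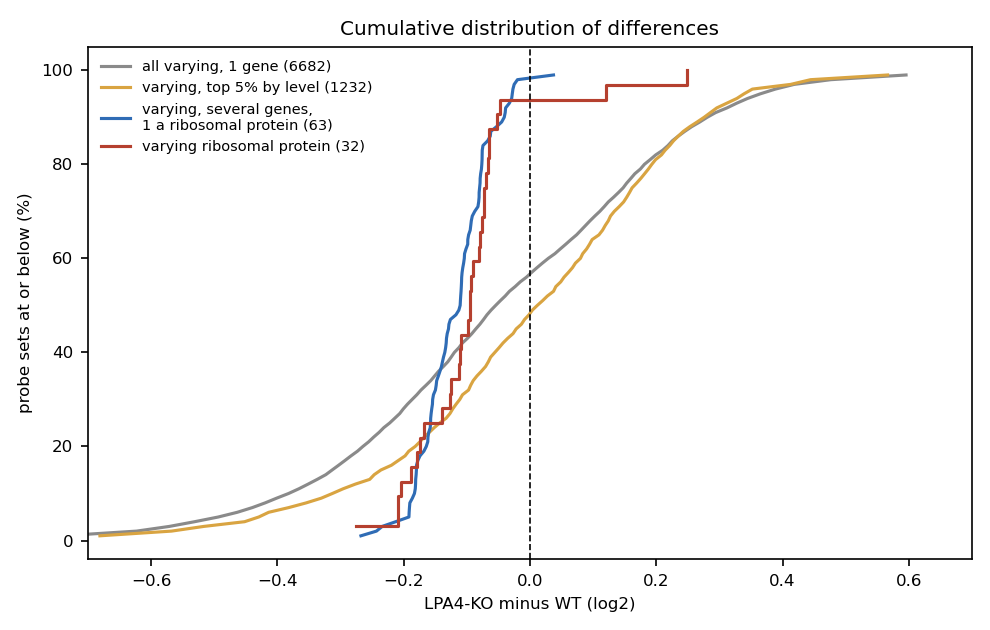
Cumulative share of probe sets (y axis, %) by difference between the LPA4-KO and WT means (x axis, log2) for the 32 varying ribosomal protein probe sets, the 63 varying probe sets that list a ribosomal protein with other genes, the 1232 varying probe sets in the top 5% of level and all 6682 varying probe sets with 1 gene; lines other than the first run through percentiles. The ribosomal protein curves rise steeply left of 0, with medians of -0.10 and -0.11 log2, and the curve of all varying probe sets is wider and has its median at -0.05 log2.

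At the 32 varying probe sets, all 4 LPA4-KO arrays lay below all 4 WT arrays in 15 (46.9%, against 15.4% of all varying probe sets). They all lay above in 1, Rpl7l1 1452049_at (against 12.9%), and the groups overlapped in 16. The differences below 0 ran from -0.28 to -0.05 log2. The 32 probe sets belong to 22 genes and were read on the same arrays, so they are not independent of each other. Each group has 4 arrays, so an exact two-sided permutation test of a single probe set can give no p under 0.0286, which every probe set with separate groups had.

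**Figure D3:**
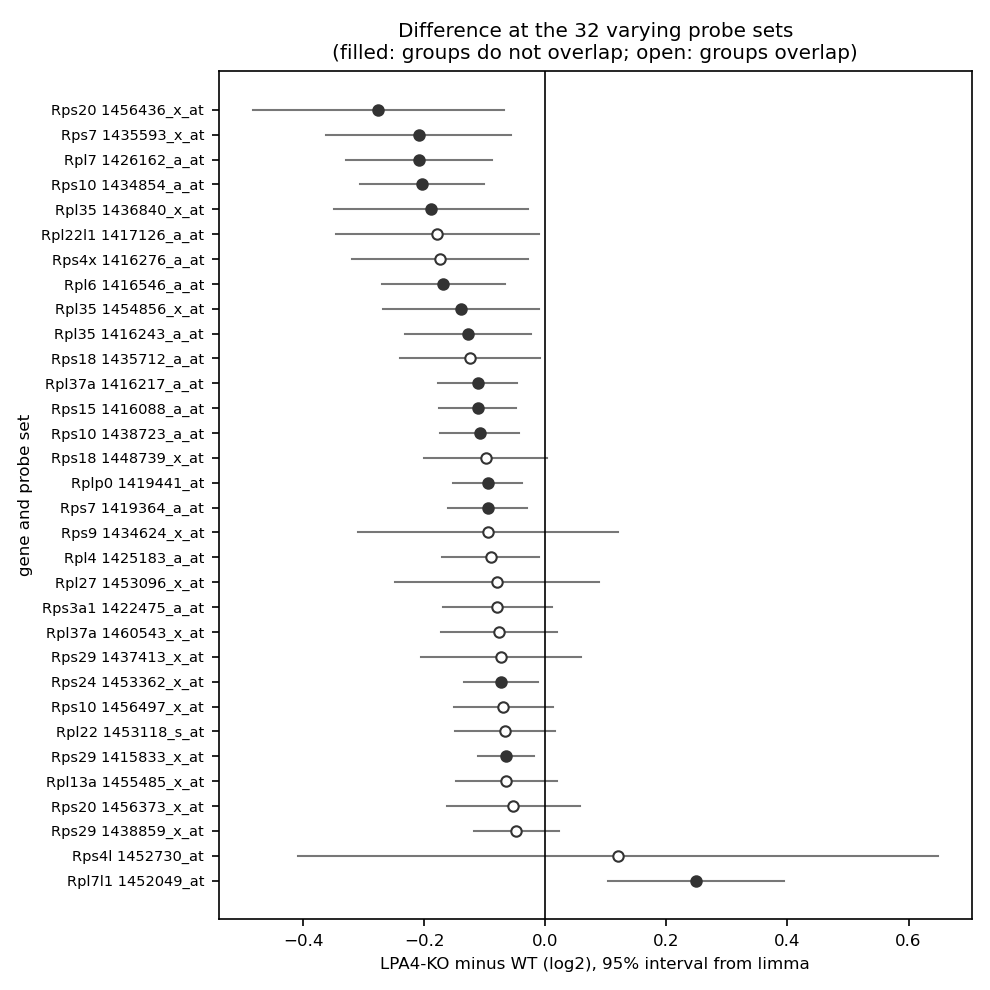
Difference between the LPA4-KO and WT means (x axis, log2) with limma's 95% interval at each of the 32 varying probe sets (y axis), filled where the 4 LPA4-KO and 4 WT arrays do not overlap. Of the 30 points left of 0, 15 are filled; the interval of Rps4l is by far the widest.

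Rpl6, a large subunit protein, had the largest difference among the large subunit genes whose groups were separate at the probe set of highest mean. Its probe set 1416546_a_at read 11.87, 11.96, 11.88 and 11.76 log2 in LPA4-KO and 12.07, 12.01, 12.04 and 12.03 in WT. The WT arrays lay within a narrow band and the LPA4-KO arrays were all under it, with the fourth lowest. The difference was -0.17 ± 0.04 log2 (SE, 1.12-fold lower, 95% interval -0.27 to -0.07), and limma's adjusted p over all genes was 0.113.

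Rpl37a, a zinc-binding large subunit protein, read 12.62, 12.68, 12.73 and 12.64 log2 in LPA4-KO and 12.80, 12.75, 12.78 and 12.80 in WT at 1416217_a_at. The highest LPA4-KO array fell just short of the lowest WT array. The difference was -0.11 ± 0.03 log2 (limma adjusted p = 0.103). At a second probe set, 1460543_x_at, the groups overlapped and the difference was -0.08 log2, and the last was nearly constant.

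Rplp0, the stalk protein that anchors Rplp1 and Rplp2 and recruits elongation factors, is often used as a reference gene in quantitative PCR. Its LPA4-KO arrays read 12.28, 12.33, 12.38 and 12.31 log2 and its WT arrays 12.44, 12.39, 12.44 and 12.41. The groups did not overlap, and the nearest pair of arrays was 0.01 log2 apart. The difference was -0.10 ± 0.02 log2 (1.07-fold lower, limma adjusted p = 0.107).

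Rpl7 and Rpl35 varied at probe sets other than the one of highest mean. Rpl7 1426162_a_at read 11.56, 11.60, 11.67 and 11.52 log2 in LPA4-KO and 11.91, 11.78, 11.75 and 11.73 in WT. The groups were separate, with WT 1 highest, and the difference of -0.21 ± 0.05 log2 had an adjusted p of 0.116 over all probe sets and 0.0391 over the varying ones alone. The other 2 probe sets of Rpl7 were nearly constant, at 11.98 and 9.52 log2. For Rpl35, a protein near the exit of the peptide tunnel, all 3 varying probe sets had separate groups, with differences of -0.19, -0.14 and -0.13 log2.

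Rpl4, Rpl27, Rpl22 and Rpl13a of the large subunit had overlapping groups. Rpl4, which reaches into the peptide tunnel, differed by -0.09 ± 0.03 log2 (limma adjusted p = 0.238), and 1 LPA4-KO array lay among the WT values. Rpl27 differed by -0.08 ± 0.07, Rpl22 by -0.07 ± 0.03 and Rpl13a by -0.06 ± 0.03 log2. Rpl13a turned to 0.01 log2 after quantile normalization, so its direction depends on the scaling.

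Among small subunit genes the smallest p over all genes was that of Rps15, a protein of the subunit's head. It read 11.71, 11.75, 11.67 and 11.67 log2 in LPA4-KO and 11.79, 11.85, 11.83 and 11.77 in WT. The groups did not overlap, and the SD was 0.038 in LPA4-KO and 0.039 in WT. The difference was -0.11 ± 0.03 log2 (1.08-fold lower, limma adjusted p = 0.101).

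Rps10, a protein of the head of the small subunit, had the smallest p of all member probe sets at 1434854_a_at. The LPA4-KO arrays read 11.38, 11.44, 11.45 and 11.26 log2 and the WT arrays 11.60, 11.58, 11.56 and 11.60. The WT arrays lay close together, with an SD of 0.018, and the highest LPA4-KO array was 0.11 log2 below the lowest of them. The difference was -0.20 ± 0.04 log2 (1.15-fold lower), with an adjusted p of 0.0927 over all probe sets and 0.0358 over the varying ones alone. At 1438723_a_at, of higher level, it was -0.11 ± 0.03 log2 with separate groups, and at 1456497_x_at -0.07 ± 0.03 with overlapping ones.

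Rps20, another protein of the head, showed the largest difference and also the clearest disagreement between probe sets. At 1456436_x_at the LPA4-KO arrays read 12.32, 12.38, 12.41 and 12.12 log2 and the WT arrays 12.73, 12.54, 12.45 and 12.62. The groups were separate by a small gap, and the spread within each was wide. The difference was -0.28 ± 0.09 log2 (1.21-fold lower), with an adjusted p of 0.191 over all probe sets and 0.0431 over the varying ones alone. At 1456373_x_at, with a similar signal, the LPA4-KO arrays read 12.60, 12.54, 12.53 and 12.44 and the WT arrays 12.66, 12.60, 12.50 and 12.57. There the groups overlapped and the difference was -0.05 ± 0.05 log2, which turned to 0.02 after quantile normalization. Both carry the suffix _x_at, which the array maker gives to probe sets whose probes can match other transcripts.

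Rps7, whose protein can also bind Mdm2, had separate groups at both of its probe sets. At 1435593_x_at the LPA4-KO arrays read 10.50, 10.61, 10.65 and 10.51 log2 and the WT arrays 10.92, 10.66, 10.79 and 10.75, and the nearest pair was 0.002 log2 apart. The difference was -0.21 ± 0.06 log2 (adjusted p = 0.182 in limma's fit of all probe sets). At 1419364_a_at it was -0.10 ± 0.03 log2.

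Rps18 had 2 varying probe sets with differences of -0.12 and -0.10 log2, and its groups overlapped at both. Rps29 had 3, at -0.07, -0.07 and -0.05 log2, and only 1415833_x_at of these had separate groups. Rps24 1453362_x_at differed by -0.07 ± 0.03 log2 with separate groups, Rps3a1 by -0.08 ± 0.04 log2 with overlapping groups, and Rps9 1434624_x_at by -0.09 ± 0.09 log2. The Rps9 arrays spread over 0.38 log2, more than its difference, and overlapped widely.

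**Figure D4:**
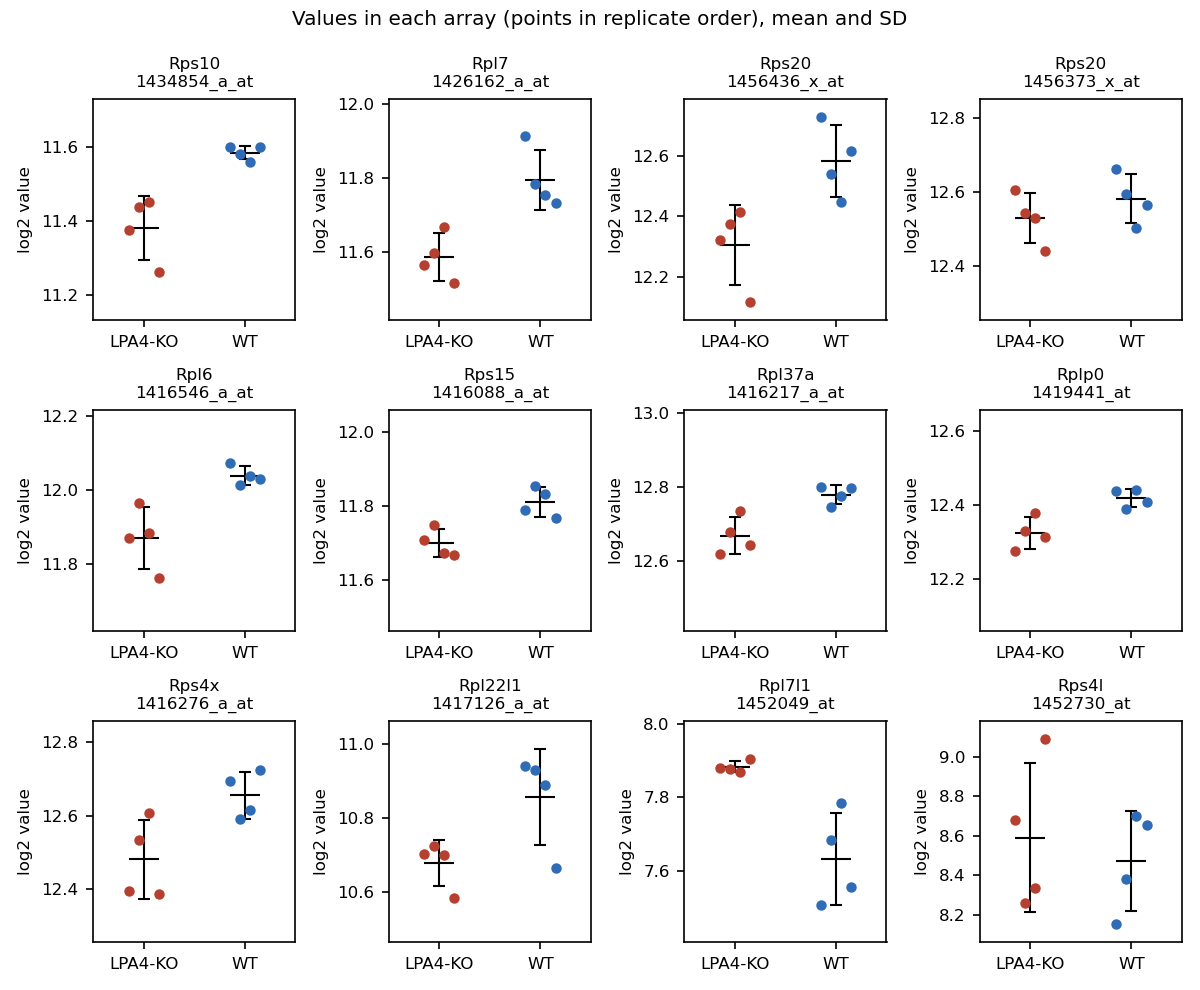
Log2 value in each of the 4 LPA4-KO and 4 WT arrays (points, in replicate order) with mean and SD at 12 probe sets of 11 genes; each panel has its own y axis, which does not start at 0. Groups are separate for Rps10, Rpl7, Rps20 1456436_x_at, Rpl6, Rps15, Rpl37a, Rplp0 and Rpl7l1, and overlap for Rps20 1456373_x_at, Rps4x, Rpl22l1 and Rps4l.

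Several ribosomal proteins have paralogues that can take their place. The list of paralogues and partners had 16 genes, of which 11 were measured and 4 varied at the probe set of highest mean. Rpl22l1, the paralogue that Rpl22 represses, read 10.70, 10.72, 10.70 and 10.58 log2 in LPA4-KO and 10.94, 10.93, 10.89 and 10.67 in WT. WT 4 lay among the LPA4-KO arrays, so the groups overlapped. The difference was -0.18 ± 0.07 log2 (limma adjusted p = 0.257). Rpl22 itself differed by -0.07 log2, so both members of the pair had a negative difference.

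Rps4x, the X-linked small subunit protein, read 12.40, 12.53, 12.61 and 12.39 log2 in LPA4-KO and 12.69, 12.59, 12.61 and 12.72 in WT at 1416276_a_at. One LPA4-KO array reached the lowest WT arrays. The difference was -0.17 ± 0.06 log2 (limma adjusted p = 0.213). Its paralogue Rps4l read 8.68, 8.26, 8.34 and 9.09 log2 in LPA4-KO and 8.15, 8.38, 8.70 and 8.65 in WT. The groups overlapped, LPA4-KO 4 lay above every WT array, and the difference was 0.12 ± 0.22 log2. Without LPA4-KO 4 it was -0.05 log2, so the sign rests on that array.

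Rpl7l1, a paralogue of Rpl7 known for a part in building the large subunit, was the single member with separate groups in the other direction at a varying probe set. At 1452049_at the LPA4-KO arrays read 7.88, 7.88, 7.87 and 7.90 log2 and the WT arrays 7.51, 7.68, 7.79 and 7.56. The LPA4-KO arrays agreed within 0.04 log2 and all exceeded the WT arrays, which spread over 0.28. The difference was 0.25 ± 0.06 log2 (1.19-fold higher, adjusted p = 0.120 over all probe sets in limma). Its other 2 probe sets, at 8.14 and 7.11 log2, were nearly constant. Rps27l, Rps27, Rpl39, Rpl39l and Rpl3l, a paralogue of muscle, were nearly constant at every probe set.

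The lowest and highest values lay mostly in the same arrays. LPA4-KO 4 was the lowest of the 8 arrays at 25 of the 32 varying probe sets, LPA4-KO 1 at 5 and WT 1 at 2. WT 1 was the highest at 22, WT 4 at 5, and LPA4-KO 4 at 2. The median deviation from a probe set's mean was -0.05, -0.01, -0.01 and -0.13 log2 in LPA4-KO 1 to 4 and 0.08, 0.04, 0.03 and 0.04 in WT 1 to 4. Thus LPA4-KO 4 and WT 1 stood at the ends, and the other LPA4-KO arrays were nearer to the WT arrays.

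**Figure D5:**
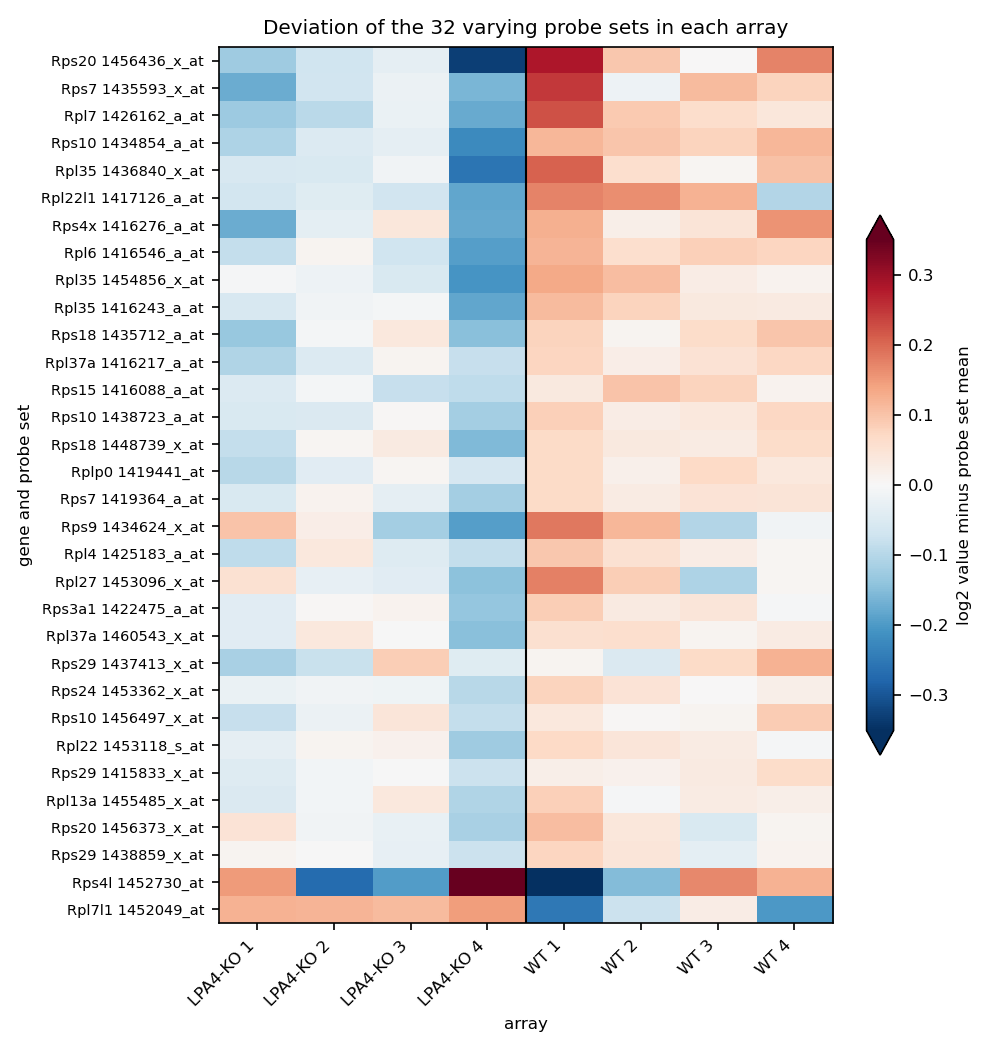
Log2 value minus the probe set's mean over 8 arrays (colour, from blue for lower to red for higher, cut at 0.35 log2 on either side) for the 32 varying probe sets (rows) in the 4 LPA4-KO and 4 WT arrays (columns). The column of LPA4-KO 4 is blue in most rows and that of WT 1 red, while Rpl7l1 and Rps4l at the bottom run differently.

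Without LPA4-KO 4, 31 of the 32 probe sets were negative, with a median of -0.07 log2. Without WT 1, 30 were negative, with a median of -0.09, and without both arrays 29 were, with a median of -0.07 log2. All LPA4-KO arrays lay below all WT arrays in 15 of the 32 in each of these cases, against 18.7%, 18.5% and 22.1% of all varying probe sets. LPA4-KO 4 also had the lowest mean level of progenitor and fibroblast markers, 9.38 log2. Among the WT arrays, WT 1 had the lowest level of these markers, 9.86 log2. WT 1 also had the widest interquartile range of all probe sets, 1.43. The part of these measures in the ribosomal protein values was not tested.

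Many ribosomal protein probe sets listed more than 1 gene, and no gene was named from them. There were 110 that list at least 1 symbol of the rule together with other genes. Of these 63 varied (57.3%), 62 of the 63 were lower on average in LPA4-KO, and the median difference was -0.11 log2. All LPA4-KO arrays lay below all WT arrays in 36 (57.1%), against 24.5% of the 253 varying probe sets with several genes, these 63 included. They may measure the same transcripts as the named probe sets, or copies of them, and so are no independent sample. By suffix, 13 of 28 named ones with _a_at, 15 of 40 with _x_at, 1 of 3 with _s_at and 3 of 32 with _at varied. The shares of all named probe sets with these suffixes were 27.6%, 24.1%, 29.8% and 16.7%. This split was not tested and does not take the signal level into account.

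Ribosomal proteins whose symbols fall outside the rule were measured for Rpsa and Fau. Rpsa, the small subunit protein also known as a laminin receptor, read 11.85, 11.97, 12.00 and 11.88 log2 in LPA4-KO and 11.84, 11.92, 11.97 and 11.92 in WT. The groups lay in the same interval, and the difference was 0.01 ± 0.04 log2 (95% interval -0.09 to 0.12). Fau was nearly constant.

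Other lists of ribosome production and translation leaned in different directions, and no list was tested against the ribosomal proteins. Of 57 measured genes of ribosome assembly 24 varied, 18 of them positive, with a median of 0.05 log2, against a median of -0.03 log2 over all varying genes. One of the 57 passed the test, against 1.31% of all genes (0.863% higher and 0.451% lower). It was Wdr12, which acts in the processing of large subunit RNA. Wdr12 read 7.68, 7.67, 7.70 and 7.70 log2 in LPA4-KO and 7.50, 7.39, 7.44 and 7.47 in WT. The LPA4-KO arrays were all above, and it rose by 0.24 ± 0.02 log2 (limma adjusted p = 0.0235). With 1 array left out it passed without WT 1 and without WT 2, and not without any other, with adjusted p up to 0.0658. Of 22 measured genes of RNA polymerase I and its factors 4 varied, 3 of them positive, and none passed.

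Translation initiation was mixed, with 16 of 32 measured genes varying, 11 of them negative, and a median of -0.02 log2. Eif3i, a subunit of the initiation factor that binds the small subunit, read 10.83, 10.88, 10.84 and 10.85 log2 in LPA4-KO and 11.01, 10.98, 10.98 and 10.96 in WT. It fell by 0.13 log2 (SE 0.01, limma adjusted p = 0.0235), and did not pass in the fit of varying genes alone (adjusted p = 0.0805). Over all genes it was the only 1 of the 32 that passed, against 1.31% of all genes (0.451% lower). With 1 array left out it passed without LPA4-KO 2 and without WT 1 only. The cap-binding factor Eif4e differed by 0.21 ± 0.04 log2, with an adjusted p of 0.0657 over all genes and 0.0429 over the varying ones alone. Eif4g3, a scaffold of the cap complex named after its values were seen, differed by -0.30 ± 0.08 log2 (adjusted p = 0.131 over all genes and 0.0370 over the varying ones alone). The fit of varying genes alone thus called 1 higher and 1 lower of the 16 varying initiation genes. It called 21.3% of all varying genes. Of 13 measured genes of elongation and termination 6 varied, 3 in each direction, and none passed.

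Of 23 measured genes of mTORC1 and TOP mRNA control 9 varied, 7 of them positive, with a median of 0.12 log2, and none passed over all genes. Larp1, which binds TOP mRNAs, differed by 0.15 ± 0.04 log2 (limma adjusted p = 0.143). Deptor, an inhibitor of mTOR, differed by -0.40 ± 0.12 log2 (adjusted p = 0.160 over all genes and 0.0347 over the varying ones alone). No other of the 9 varying genes passed in the fit of varying genes alone. That fit called 21.3% of all varying genes, 11.5% lower. In the list of the 5S RNP and p53 checkpoint 7 of 16 measured genes varied, 6 of them negative, with a median of -0.22 log2, and none passed. This list contains the members Rps7, Rpl11 and Rps27l, and after Rps7 the smallest p was that of the p53 target Gadd45a, at -0.28 ± 0.16 log2 (limma adjusted p = 0.417).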

How the data were processed

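Epididymal white adipose tissue RNA of 4 LPA4-KO and 4 WT mice was measured on 1 array each. Per the labels' protocols, RNA came from frozen tissue by a lipid tissue kit and was labelled by 3′ in vitro transcription. The authors deposited 1 value for every probe set of an array, read here as log2 from the range of the values. R 2.14.0 is named in the submitters' processing notes; for background correction, normalization and log base, the method is not given in the sources used here. Fold changes rest on that reading. The number of arrays limits the precision.

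Members were matched by symbol among probe sets with 1 gene symbol; 932 probe sets with several genes named no gene. The members, the lists and the limit of 0.1 log2 were chosen with earlier results of these data known. A gene was represented by its probe set of highest mean. The test was that of limma 3.58.1 (R 4.3.3; linear model, eBayes with a trend, no block, no level filter), with Benjamini-Hochberg adjustment over all genes or all named probe sets and a threshold of 0.05, and the script was tested on simulated data. Errors are limma's standard errors unless called SD. Named were members with varying probe sets, those next to the limit, the signal extremes, and in each list called genes and some of smallest p. Alternatives were other scalings, range limits, probe set choices, eBayes settings, array weights, a replicate block and leaving out arrays.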

Additional observations from a re-analysis of the deposited data

Results flagged for a closer look

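At the 32 varying ribosomal protein probe sets and the 3 probe sets of Lpar4, 1 of the 70 groups of 4 arrays had an array far from the others. At Rps24 1453362_x_at the array LPA4-KO 4 read 11.41 log2 and the other LPA4-KO arrays 11.49 to 11.50, a gap of 0.869 of the group's whole range, above Dixon's 95% limit for 4 values. Chance alone marks about 1 group in 20.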

How the results depend on the processing

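The median difference of the varying ribosomal protein genes stayed negative under every alternative run, from -0.10 log2 (without LPA4-KO 2) to -0.07 (quantile normalization). With a range limit of 0.2 log2, 8 genes varied and 7 were negative. Quantile normalization called 8 members higher and 5 lower among genes, and 20 higher and 9 lower among probe sets. All 8 of the higher genes and 19 of the higher probe sets were nearly constant ones. In either direction, 51.9% of all genes and 56.4% of all named probe sets were called after quantile normalization, larger shares than among the members. The fit of varying probe sets alone called 3 lower, and with each array also centred on its median varying probe set, a setting chosen after seeing the data, 1 was higher and 2 lower.

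Under quantile normalization, over all or varying genes alone, Rpl13a turned to 0.0060 and Rps20 1456373_x_at to 0.016 log2. With 1 array left out Rps4l ranged from -0.046 (without LPA4-KO 4) to 0.23 log2 (without LPA4-KO 2); it turned to -0.0068 with array weights and to -0.15 without LPA4-KO 4 and WT 1 together. Without both, a setting added later, Rps20 turned to 0.0038 and Rps9 1434624_x_at to 0.00069 log2. The cause was not tested.

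Over all genes 0.863% were called higher and 0.451% lower, and 21.3% of the varying genes were called in the fit of these alone. Quantile normalization called 51.9% of all genes. The further pathway lists had 1 gene called higher and 1 lower. Counts were 2 and 2 without a trend, in varying genes alone, and there after quantile normalization or median centring; 3 and 2 with varying genes centred on their median; 37 and 6 after quantile normalization over all genes. Robust eBayes called 2 higher, genes above the median level 3 higher, and leaving out both arrays 0 lower. Leaving out 1 array gave 0 to 2 higher and 0 to 1 lower. With a replicate block 0 members passed, 0 list genes were higher and 0 lower, and 0 of all genes passed, against 239 without it. Same-numbered arrays correlated at -0.18 to 0.24 in their deviations, 1 of 4 pairs above 0.1. Arrays with different numbers correlated at -0.27 to 0.31, so these values cannot decide whether same-numbered arrays were paired.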
